A study of Mus musculus with 12 samples.

Results

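The 40 genes described here drive the cell cycle and copy DNA. They were chosen by gene symbol, and each of the 40 was found in both PSC tables and in the osteoclast table, among 53715 genes in the table of 5 PSC libraries, 48709 in the table of PSC control 3 and 46517 in the osteoclast table. The study asked what loss of Prmt5, an arginine methyltransferase, did in cells in which Ctsk-Cre is active, and RNA-seq was made from 12 samples of C57BL/6 mice. PSCs were periosteal stem cells sorted by FACS from mice of 3 to 6 weeks, with 3 libraries labelled cKO (Prmt5 flox/Δ) and 3 labelled control (Prmt5 flox/+), all from mice with both Ctsk-Cre and the reporter CAG-CAT-EGFP. Osteoclasts were grown in vitro from mice of 11 weeks and collected 72 h after RANKL, with 3 cKO libraries (Prmt5 flox/Δ Ctsk-Cre) and 3 control libraries; the sources used here do not state the genotype of these controls. The cKO mice carry the Δ allele in every cell and delete the floxed allele only where Ctsk-Cre acts, so cells outside that lineage keep 1 Prmt5 allele, and PSC controls keep 1 intact allele in the deleted cells as well.

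A cell enters the cycle when D-type cyclins with CDK4, and then E-type cyclins with CDK2, release the E2F factors. These switch on the genes for copying DNA: the MCM helicase, the CDC45 and GINS proteins that start it, the PCNA clamp and the enzymes that make nucleotides. Genes needed for mitosis follow later, under FOXM1 and the DREAM complex, and their products run the spindle, the chromosome attachments and the destruction of cyclin B. Mki67 and Top2a mark cells that are cycling. In bone, osteoclasts are non-dividing cells that form by fusion of dividing precursors, whereas periosteal stem cells are a self-renewing population.

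PSC levels are RPKM (reads per kb of exon, scaled to mapped reads). Osteoclast levels are CPM (counts scaled to the TMM-adjusted library size), and where genes are set side by side CPM of the unadjusted library total was divided by exon length (CPM per kb). Mapped reads, worked back from the RPKM steps, were 9932976 to 13928745 in the cKO libraries, 11376003 and 10789165 in controls 1 and 2, with 6958265 in control 3. Osteoclast libraries held 984885 to 3608940 reads in cKO and 2513440 to 2805824 in control. PSC control 3 stood apart: its table was made separately, and its log2(RPKM + 1) correlated with the other 5 libraries at 0.880 to 0.897, against 0.947 to 0.981 among those 5. The main PSC comparison therefore used the 5 libraries of one table, and control 3 is given beside it. Osteoclast control 3 also differed, with 1506 Xist reads where no other osteoclast library had more than 1. Xist, an RNA of female cells, also differed among PSC libraries (0 to 1.13 RPKM in cKO libraries, 0.034 and 1.72 RPKM in controls 1 and 2, 4.04 RPKM in control 3), and the part of sex in the results was not tested. No marker of either labelled cell type in the lists used here was at 0 in a PSC library (11 PSC genes), nor in an osteoclast library (11 osteoclast genes). Prmt5 itself had 28.6, 37.6 and 35.1 CPM in cKO osteoclasts, against 58.1, 71.2 and 67.0 CPM in control osteoclasts (log2 fold change -1.01, adjusted p = 0.0349, edgeR). Without 1 library at a time, that adjusted p ran as high as 0.281. In PSCs it had 8.40, 6.31 and 8.08 RPKM in libraries labelled cKO, against 6.29 and 8.31 RPKM in controls 1 and 2, with 4.32 RPKM in control 3, so the level of Prmt5 over its exons did not separate the PSC groups, and PSC libraries are called by their labels throughout. The study reported that Prmt5 mRNA and protein decreased in PSCs of the cKO mice. An RPKM over all exons does not show the floxed region alone, and values for that region were not at hand.

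In PSCs most of the cell cycle genes lay above the controls, by small amounts. Of the 40 genes, 37 passed the filter on low values (a mean of at least 1 RPKM) and Cdc6, Gins1 and Bub1 did not. Of those 37, 29 (78.4%) had all 3 cKO libraries above both controls, where 35.6% of the 11045 genes tested did. The filter took the mean of both groups and so favours genes that are high in cKO libraries. At least Mki67 and Bub1b, with control means under 1 RPKM, reached it only through the cKO libraries. How many of the 29 did so was not counted. Only Ube2c, Aurkb and Mcm5 rose by the test (adjusted p under 0.05 with limma), which is 8.11% of the 37, near the 6.99% of all genes tested that were called higher. A further 16 had an unadjusted p under 0.05, making 19 of 37 (51.4%) against 21.6% of all genes. None was called lower, where 1.39% of all genes were, and none was lower at an unadjusted p under 0.05, where 5.48% were. The median log2 fold change of the 37 was 0.43, against 0.14 for all genes tested, and 32 of the 37 lay above that all-gene median. When RPKM were rescaled by median-of-ratios factors, which moved the all-gene median to -0.01, the median of the 37 was 0.31 and none passed (13 higher and 2 lower at an unadjusted p under 0.05), where 3.49% of all genes were called higher. At an unadjusted p under 0.05, 12.1% of all genes were higher with that scaling. Without the filter on low values all 40 genes were tested, with 35 above 0, a median of 0.41 and none called (21 higher at an unadjusted p under 0.05). Of all genes tested in that setting, 16.5% had an unadjusted p under 0.05 in either direction. The scaling also changed the split of all calls from 83.5% higher to 58.3% higher. In a bulk sample a larger share of cycling cells and more of each RNA per cell cannot be told apart.

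**Figure D1:**
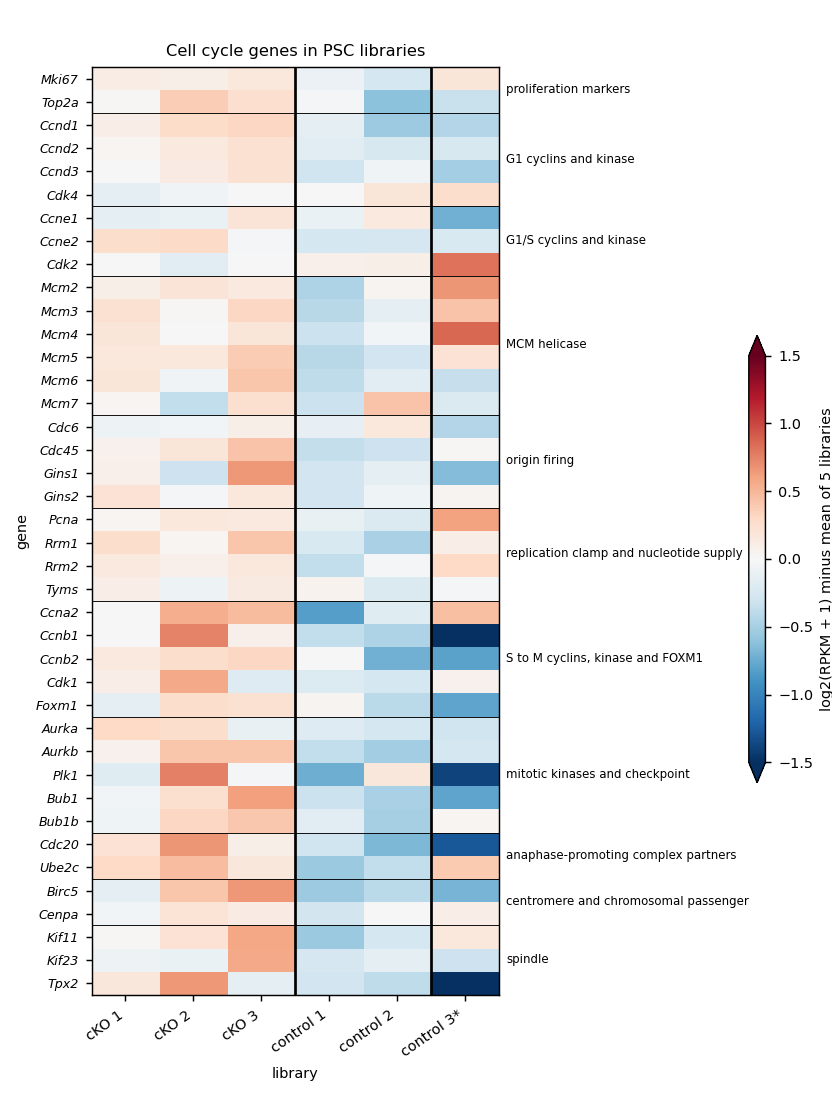
Level of each of the 40 genes in each PSC library, as log2(RPKM + 1) minus the mean of the 5 libraries of one table, with genes in rows grouped by role and the cKO libraries on the left. The asterisk marks control 3, from its own table. Controls 1 and 2 are below the mean for most genes, and control 3 is high for Mcm2, Mcm4, Pcna and Cdk2 and low for Ccnb1, Plk1, Cdc20 and Tpx2. The control 3 value of Cdk2 may be on another length scale.

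Control 3 stood in different places for replication and for mitosis genes. The 14 replication genes (MCM, origin firing, clamp and nucleotide supply) summed to 77.7, 71.5 and 86.6 RPKM in cKO libraries, against 54.9 and 64.5 RPKM in controls 1 and 2, with 88.7 RPKM in control 3, which thus had the highest sum of the 6. The 17 mitosis genes (from cyclin A and B to the spindle) summed to 41.0, 58.3 and 49.5 RPKM in cKO libraries, against 27.2, 26.5 and 25.7 RPKM in controls 1, 2 and 3. The sums of the 3 controls were thus closer for mitosis genes than for replication genes, whereas single mitosis genes such as Ccna2, Ube2c and Cdc20 differed widely between control 3 and the other two controls. Control 3 was below every cKO library in 11 of the 17 mitosis genes and above every one in 0, whereas it was below in 4 of the 14 replication genes and above in 5. It lay among the cKO libraries in the other 6 mitosis genes and 5 replication genes. The share of all genes in each of these places was not counted, so these counts describe the 2 lists only. Control 3 also had the fewest mapped reads, with 3 of the 17 mitosis genes and 1 of the 14 replication genes at 0. The part of depth in this contrast was not tested. For Ccnb2, Cdk1 and Kif23, counted among the mitosis genes, control 3 may be on another length scale, as set out below. Over all 6 libraries, 15 of the 37 genes had all cKO libraries above all controls (40.5%, against 20.1% of genes tested), and none passed (14 higher at an unadjusted p under 0.05, limma), where 1.24% of all genes were called higher and 13.5% were higher at an unadjusted p under 0.05.

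**Figure D2:**
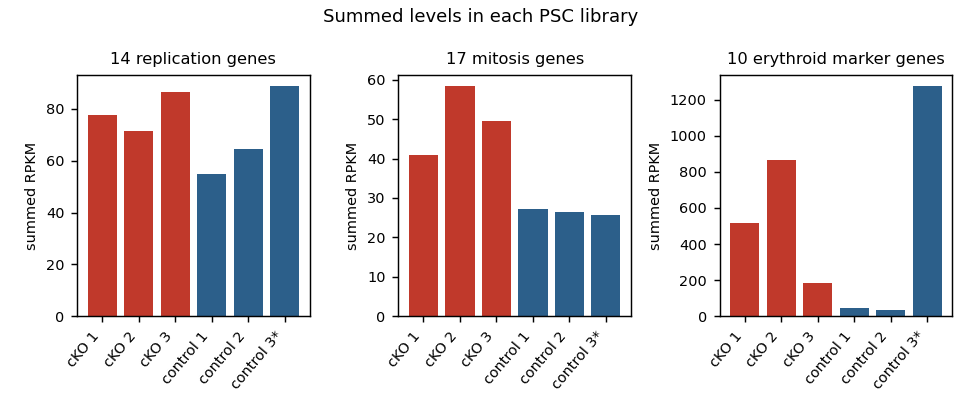
Summed RPKM of the 14 replication genes, the 17 mitosis genes and 10 erythroid marker genes in each PSC library (red cKO, blue control, 1 bar per library; the asterisk marks control 3). The cKO libraries have 41.0 to 58.3 RPKM of mitosis genes and the 3 controls 25.7 to 27.2, while control 3 has the most replication and erythroid RNA.

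Markers of erythroid and endothelial cells were higher in the cKO libraries than in controls 1 and 2, and the other lists overlapped between those groups, apart from the PSC markers. The 10 erythroid genes summed to 516, 868 and 184 RPKM in cKO libraries, against 47.5 and 33.8 RPKM in controls 1 and 2, with 1274 RPKM in control 3, and 4 of the 6 tested were called higher, all hemoglobin genes. All 6 were higher at an unadjusted p under 0.05 (limma, log2 fold change 1.32 to 3.63), where 21.6% of all genes were. With edgeR on recovered reads 5 of 7 tested were called higher, where 3.79% of all genes were. Over all 6 libraries (limma) none of 7 tested was called. The erythroid factors Gata1 and Klf1, left out by the filter on low values, were at or under 0.59 RPKM in each of the 5 libraries. The 6 endothelial genes summed to 8.17 to 19.6 RPKM in cKO libraries, against 6.52 and 3.52 RPKM in controls 1 and 2, with 2.26 RPKM in control 3. The 7 B cell genes summed to 5.92 to 27.3 RPKM in cKO libraries, against 4.33 and 7.84 in controls 1 and 2, with 9.22 RPKM in control 3. The 11 PSC markers summed to 10208 to 10979 RPKM in cKO libraries, against 19713 and 15857 in controls 1 and 2, with 6648 RPKM in control 3. Sums of 7 macrophage genes (251 to 341 RPKM in cKO libraries, 294 and 192 in controls 1 and 2) and of 10 neutrophil and myeloid progenitor genes (1226 to 2065 in cKO libraries, 1958 and 1153 in controls 1 and 2) overlapped, as did those of 7 chondrocyte genes (5979, 9683 and 6221 RPKM in cKO libraries, 6205 and 5236 RPKM in controls 1 and 2). The part of these cells in the results was not tested.

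Among proliferation markers, Mki67, the Ki-67 antigen, had 1.36, 1.32 and 1.43 RPKM in cKO libraries, against 1.06 and 0.82 RPKM in controls 1 and 2, with 1.49 RPKM in control 3. Top2a, the topoisomerase that untangles copied DNA, had 2.09, 2.96 and 2.63 RPKM in cKO libraries, against 2.01 and 0.99 RPKM in controls 1 and 2, with 1.42 RPKM in control 3. Both were above controls 1 and 2 in each cKO library, and only Top2a stayed above control 3. Neither passed (log2 fold change 0.29 ± 0.12 and 0.53 ± 0.21, adjusted p = 0.186 and 0.154, here and below ± SE with n = 3 cKO and 2 control).

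Ube2c, the ubiquitin-conjugating enzyme of the anaphase-promoting complex, had 3.18, 3.68 and 2.81 RPKM in cKO libraries, against 1.32 and 1.64 RPKM in controls 1 and 2. It rose with a log2 fold change of 0.77 ± 0.14 (adjusted p = 0.0255), yet control 3 had 3.48 RPKM, among the cKO libraries. Exons of Ube2c share 22.8% of their bases with Tnnc2 on the other strand, a muscle troponin gene that was at 0.645 RPKM or lower in each library. Its partner Cdc20, which brings substrates to the same complex, had 6.15, 8.68 and 5.53 RPKM in cKO libraries, against 3.9999 and 2.83 RPKM in controls 1 and 2, with 1.54 RPKM in control 3. Cdc20 did not pass in spite of its larger fold change (0.81 ± 0.21, adjusted p = 0.0579), and the 3 cKO libraries were above all 3 controls.

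Aurkb, the kinase of the chromosomal passenger complex that corrects wrong attachments, had 2.34, 3.25 and 3.24 RPKM in cKO libraries, against 1.46 and 1.23 RPKM in controls 1 and 2, with 1.66 RPKM in control 3. It rose by a log2 fold change of 0.74 ± 0.15 (adjusted p = 0.0341), and the groups did not overlap with control 3 either. Its partner Birc5 (survivin) had 2.05, 3.46 and 4.22 RPKM in cKO libraries, against 1.29 and 1.53 RPKM in controls 1 and 2, with 1.06 RPKM in control 3 (log2 fold change 0.78 ± 0.23, adjusted p = 0.0818). Bub1b, the BUBR1 protein of the spindle checkpoint, had 1.26, 1.93 and 2.13 RPKM in cKO libraries, against 1.11 and 0.67 RPKM in controls 1 and 2, with 1.41 RPKM in control 3 (adjusted p = 0.117). Its cKO libraries were above controls 1 and 2 but not all above control 3. Cenpa, the histone of centromeres, overlapped between the groups, at 2.55, 3.21 and 2.99 RPKM in cKO libraries against 2.03 and 2.66 RPKM in controls 1 and 2, with 2.92 RPKM in control 3. Bub1, the checkpoint kinase left out by the filter, had 0.68, 1.04 and 1.64 RPKM in cKO libraries, against 0.38 and 0.23 RPKM in controls 1 and 2 and no exon read in control 3, which leaves up to 0.0990 RPKM (3 reads).

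Mcm5, a subunit of the MCM helicase, had 4.33, 4.36 and 5.26 RPKM in cKO libraries, against 2.58 and 2.92 RPKM in controls 1 and 2. Its log2 fold change was 0.59 ± 0.14 (adjusted p = 0.0443), and control 3, with 4.57 RPKM, lay among the cKO libraries. Mcm3 of the same ring had 5.09, 4.23 and 5.44 RPKM in cKO libraries, against 2.89 and 3.72 RPKM in controls 1 and 2, with 5.97 RPKM in control 3 (adjusted p = 0.114). Of the 6 MCM genes, 5 were above both controls in each cKO library and Mcm7 overlapped (log2 fold change -0.09 ± 0.26), but control 3 was above every cKO library for Mcm2, Mcm3 and Mcm4. The ring of 6 proteins is built 1 to 1, and its genes had means of 3.98 (Mcm2) to 8.97 RPKM (Mcm6) in cKO libraries and 2.75 (Mcm5) to 7.35 RPKM (Mcm7) in controls 1 and 2.

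Of the genes that fire origins, Cdc45, which joins MCM to form the active helicase, had 1.94, 2.19 and 2.79 RPKM in cKO libraries, against 1.21 and 1.28 RPKM in controls 1 and 2, with 1.85 RPKM in control 3. Its log2 fold change of 0.55 ± 0.15 did not pass (adjusted p = 0.0636), although each cKO library was above each control. Gins2, of the GINS complex, had 1.68, 1.25 and 1.57 RPKM in cKO libraries, against 0.88 and 1.20 RPKM in controls 1 and 2, with 1.37 RPKM in control 3. In control 3 only 46.2% of its exon reads were listed as unique, and Gse1 on the other strand covers 67.3% of its exon bases, so its values are uncertain. Rrm1, the large subunit of ribonucleotide reductase, had 8.91, 7.37 and 9.96 RPKM in cKO libraries, against 6.05 and 4.88 RPKM in controls 1 and 2, with 7.83 RPKM in control 3 (log2 fold change 0.59 ± 0.16, adjusted p = 0.0712). Pcna, the sliding clamp, had 15.56, 17.11 and 16.99 RPKM in cKO libraries, against 13.99 and 12.98 RPKM in controls 1 and 2, with 23.65 RPKM in control 3, and 67.8% of its control 3 reads were unique. Both were above controls 1 and 2 in each cKO library, with Pcna highest in control 3.

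Among the S to M cyclins, Ccna2 (cyclin A2) had 3.27, 5.25 and 4.97 RPKM in cKO libraries, against 1.42 and 2.79 RPKM in controls 1 and 2, with 4.86 RPKM in control 3. Its log2 fold change of 0.84 ± 0.24 was the largest of the 37 tested, without passing (adjusted p = 0.0807). Ccnb1 (cyclin B1) had 1.86, 3.80 and 2.02 RPKM in cKO libraries, against 1.21 and 1.08 RPKM in controls 1 and 2 (adjusted p = 0.114). Control 3 held no exon read of Ccnb1, which leaves up to 0.102 RPKM. Of the spindle genes, the motor Kif11 had 1.91, 2.34 and 3.30 RPKM in cKO libraries, against 0.95 and 1.38 RPKM in controls 1 and 2, with 2.21 RPKM in control 3 (adjusted p = 0.0756). Tpx2, which activates Aurora A on the spindle, had 2.58, 3.98 and 1.88 RPKM in cKO libraries, against 1.62 and 1.45 RPKM in controls 1 and 2 (adjusted p = 0.173), and no exon read in control 3, which leaves up to 0.0922 RPKM. Ccnb1 and Tpx2 thus had cKO libraries above all 3 controls, while Ccna2 and Kif11 overlapped with control 3. Gins1 and Bub1 were the other genes of the 40 with no exon read in control 3.

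The G1 genes included the most abundant of the list. Ccnd2 (cyclin D2) had 30.2, 33.0 and 34.8 RPKM in cKO libraries, against 26.4 and 24.8 RPKM in controls 1 and 2, with 24.8 RPKM in control 3 (log2 fold change 0.34 ± 0.13, adjusted p = 0.149). Ccnd1 (cyclin D1) had 2.85, 3.38 and 3.47 RPKM in cKO libraries, against 2.26 and 1.48 RPKM in controls 1 and 2, with 1.65 RPKM in control 3 (0.57 ± 0.16, adjusted p = 0.0742). Both were above all 3 controls in each cKO library, and so was Ccnd3. Their kinase gene Cdk4 overlapped, at 27.7, 29.2 and 30.4 RPKM in cKO libraries against 30.4 and 34.7 RPKM in controls 1 and 2, with 36.6 RPKM in control 3. At the G1/S step, Ccne2 (cyclin E2) had 2.83, 2.88 and 2.12 RPKM in cKO libraries, against 1.66 and 1.67 RPKM in controls 1 and 2, with 1.73 RPKM in control 3 (adjusted p = 0.114). Cdk2, the partner kinase, was the 1 gene of the 37 with every cKO library below both controls, where 10.2% of all genes were. It had 6.82, 5.96 and 6.88 RPKM in cKO libraries, against 7.24 and 7.33 RPKM in controls 1 and 2. Cdk2 did not pass (adjusted p = 0.529, limma). Control 3 had 12.8 RPKM of Cdk2, but the gene record listed with control 3 differs from that of GENCODE vM21. That value may therefore be on another length scale than the other 5 libraries.

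The remaining genes were mixed, and none passed. Ccnd3, Mcm2, Mcm4, Mcm6, Rrm2, Ccnb2, Cdk1 (the kinase of cyclins A and B), Aurka (the Aurora kinase of spindle poles) and Kif23 (a motor of cell division) had every cKO library above controls 1 and 2, with log2 fold changes of 0.30 (Ccnd3) to 0.60 (Ccnb2) and adjusted p of 0.126 (Ccnb2) to 0.380 (Kif23). Control 3 was above every cKO library for Mcm2, Mcm4 and Rrm2. The groups overlapped for Ccne1 (cyclin E1), Tyms, Foxm1 and Plk1, beside Cdk4, Mcm7 and Cenpa named above, with log2 fold changes of -0.15 (Cdk4) to 0.47 (Plk1). Of the other genes left out by the filter, Cdc6 had 0.49, 0.54 and 0.67 RPKM in cKO libraries, against 0.45 and 0.76 RPKM in controls 1 and 2, and Gins1, of the GINS complex, had 0.66, 0.27 and 1.48 RPKM in cKO libraries, against 0.29 and 0.43 RPKM in controls 1 and 2. Both of these overlapped.

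**Figure D3:**
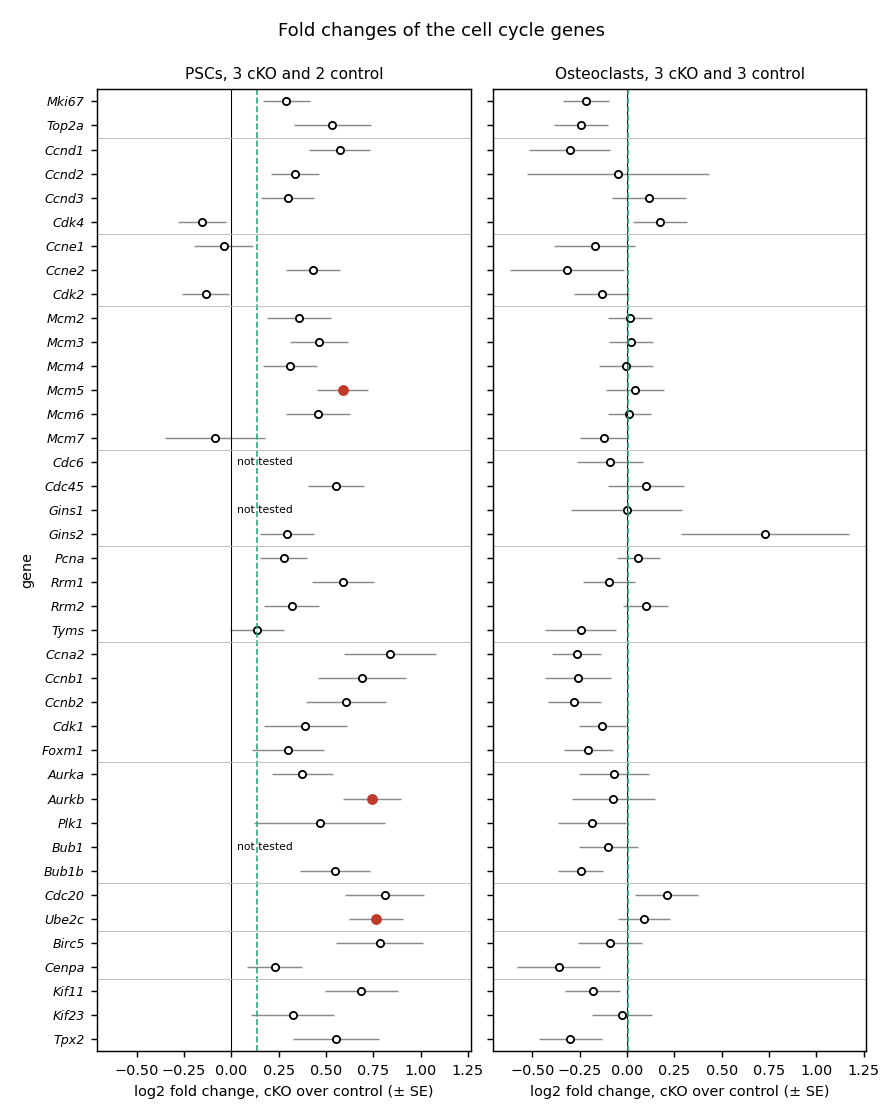
Log2 fold change of each of the 40 genes, cKO over control, with its SE, in PSCs (left, limma on 5 libraries) and osteoclasts (right, edgeR on 6 libraries). Filled red points passed at an adjusted p under 0.05 (Ube2c, Aurkb and Mcm5, in PSCs) and the dashed line is the median of all genes tested, 0.14 in PSCs and 0.0024 in osteoclasts.

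These PSC calls rest on few reads and on the choice of libraries. The 36 members whose exon reads could be worked back had 4 to 2909 reads in a library of one table, with medians of 143.5 to 155.5 in cKO libraries and 85.5 and 74.0 in controls 1 and 2. With edgeR on those reads, none of the 36 passed (11 higher and 1 lower at an unadjusted p under 0.05), where 3.79% of all genes were called higher and 2.62% lower. At an unadjusted p under 0.05, 12.1% of all genes were higher and 10.5% lower. Leaving out any 1 of the 5 libraries left 0 members called, except that 2 were called without cKO 1 (Aurkb and Birc5). Ube2c, Aurkb and Mcm5 each had a positive log2 fold change under every alternative.

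The promoters of these genes were read for motifs that cell cycle genes are known to share. The list was chosen as cell cycle genes, so its share of such motifs does not bear on the change in PSCs. RefSeq promoters on GRCm38.p6 were matched by symbol for 30 of the 40 genes, in 32 windows. The 250 bases before the start held a CCAAT box (CCAAT, bound by NF-Y) in 26 of the 32 windows (81.2%), where 33.8% of all 32851 promoter windows of that length did. A CHR element (TTTGAA, a DREAM and FOXM1 site of mitosis genes) was in 9 windows (28.1%, against 16.0% of all), each of which also had a CCAAT box, a combination that 5.55% of all windows held. It was in 5 of 13 windows of mitosis genes and 2 of 12 of replication genes. An E2F site (TTTCCCGC, TTTCGCGC, TTTGCCGC or TTTGGCGC) was in 6 windows (18.8%, against 1.86% of all), 4 of them among the 12 of replication genes. A GC box (GGGCGG), which is not particular to the cell cycle, was in 25 windows (78.1%, against 32.7% of all). All motifs were searched on both strands, and a match is a description of the letters only. The 6 genes with a promoter entry and the smallest p in PSCs are shown. Of the genes called there, Ube2c and Mcm5 are among them and Aurkb had no promoter entry. The others shown (Cdc20, Cdc45, Rrm1 and Kif11) did not pass. Sequences run from 250 to 3 bases before the start, 5′ to 3′ on the strand of the gene, with CCAAT, CHR and E2F matches of either strand in capitals.
Ube2c (chr2:164769679-164769926, plus strand): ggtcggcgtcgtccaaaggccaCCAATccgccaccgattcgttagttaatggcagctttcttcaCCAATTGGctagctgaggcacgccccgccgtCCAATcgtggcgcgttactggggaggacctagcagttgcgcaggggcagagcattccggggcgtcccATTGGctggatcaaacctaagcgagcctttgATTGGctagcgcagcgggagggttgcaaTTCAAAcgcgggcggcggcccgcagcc
Mcm5 (chr8:75109259-75109506, plus strand): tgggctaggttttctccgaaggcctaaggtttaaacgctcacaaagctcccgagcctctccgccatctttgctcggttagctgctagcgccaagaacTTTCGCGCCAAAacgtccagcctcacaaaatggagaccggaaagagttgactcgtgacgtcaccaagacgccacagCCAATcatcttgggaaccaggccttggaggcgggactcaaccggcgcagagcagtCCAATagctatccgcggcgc
Cdc20 (chr4:118437346-118437593, minus strand): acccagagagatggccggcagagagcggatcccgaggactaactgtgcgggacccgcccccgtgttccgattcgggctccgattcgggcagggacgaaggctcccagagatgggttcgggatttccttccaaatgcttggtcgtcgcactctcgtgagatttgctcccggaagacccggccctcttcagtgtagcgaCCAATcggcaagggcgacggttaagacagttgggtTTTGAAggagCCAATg
Cdc45 (chr16:18811975-18812222, minus strand): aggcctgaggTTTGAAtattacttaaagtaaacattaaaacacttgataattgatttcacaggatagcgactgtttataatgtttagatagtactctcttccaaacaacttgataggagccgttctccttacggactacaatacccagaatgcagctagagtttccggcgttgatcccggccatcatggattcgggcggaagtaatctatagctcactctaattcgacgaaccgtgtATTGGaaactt
Rrm1 (chr7:102441445-102441692, plus strand): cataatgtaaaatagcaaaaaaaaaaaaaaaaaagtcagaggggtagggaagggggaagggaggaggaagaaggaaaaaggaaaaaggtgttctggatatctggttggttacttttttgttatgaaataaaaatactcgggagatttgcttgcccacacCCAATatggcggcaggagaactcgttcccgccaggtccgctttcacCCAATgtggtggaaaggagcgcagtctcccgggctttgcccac
Kif11 (chr19:37376132-37376379, plus strand): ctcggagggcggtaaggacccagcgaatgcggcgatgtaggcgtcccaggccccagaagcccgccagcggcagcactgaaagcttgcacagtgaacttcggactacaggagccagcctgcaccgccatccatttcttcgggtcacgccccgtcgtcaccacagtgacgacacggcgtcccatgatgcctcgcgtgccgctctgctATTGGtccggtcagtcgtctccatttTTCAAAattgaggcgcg
Ube2c, Cdc20 and Kif11, all of mitosis, carry a CHR match 29, 18 and 19 bases before the start, with the nearest upstream CCAAT match 57, 53 and 45 bases before it. Mcm5 carries the only E2F matches of the 6, a pair overlapping each other from 153 bases before the start. Rrm1 has CCAAT matches alone, and the CHR match of Cdc45 lies far upstream, 240 bases before the start. CCAAT matches of Ube2c at 186 and 183 overlap and lie on opposite strands.

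Some genes outside the 40 that act in the same steps changed more. Of 111 other cell cycle genes in 4 lists, 80 were tested in PSCs, of which 11 (13.8%, where 6.99% of all genes were) were called higher and none lower, with 30 (37.5%, where 21.6% of all genes were) higher at an unadjusted p under 0.05 and a median log2 fold change of 0.28. Of those called, E2f2, Kif22 and Spc25 reached the filter on low values only through the cKO libraries. The 13.8% is therefore a description and no support for a change of these lists. Over all 6 libraries only Orc4 and Rfc3 of the 82 tested were called (20 higher and 1 lower at an unadjusted p under 0.05, limma). Of all genes, 1.24% were called higher there and 13.5% were higher at an unadjusted p under 0.05. In the list of replication genes, 4 of 31 passed. Orc4, of the origin recognition complex on which MCM is loaded, had 11.99, 10.77 and 10.86 RPKM in cKO libraries, against 3.47 and 3.57 RPKM in controls 1 and 2, with 4.22 RPKM in control 3. With a log2 fold change of 1.43 ± 0.12 (adjusted p = 0.00287), it rose more than any of the 40 genes, and it passed over all 6 libraries as well (adjusted p = 0.0196). Orc3 of the same complex had 10.8, 9.51 and 9.61 RPKM in cKO libraries, against 3.87 and 4.92 RPKM in controls 1 and 2, with 6.47 RPKM in control 3 (1.03 ± 0.14, adjusted p = 0.0114). Rfc3, a subunit of the loader that opens the PCNA clamp, had 5.05, 4.29 and 4.62 RPKM in cKO libraries, against 1.90 and 1.69 RPKM in controls 1 and 2, with 1.11 RPKM in control 3 (1.01 ± 0.13, adjusted p = 0.00856). For these 3 genes the cKO libraries were above all controls with no overlap, and without control 1 Orc3 and Rfc3 no longer passed (adjusted p = 0.0737 and 0.0553). Rpa2, which coats single-stranded DNA, had 6.14, 6.26 and 7.21 RPKM in cKO libraries, against 3.58 and 4.43 RPKM in controls 1 and 2, but 10.5 RPKM in control 3 (adjusted p = 0.0482).

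**Figure D4:**
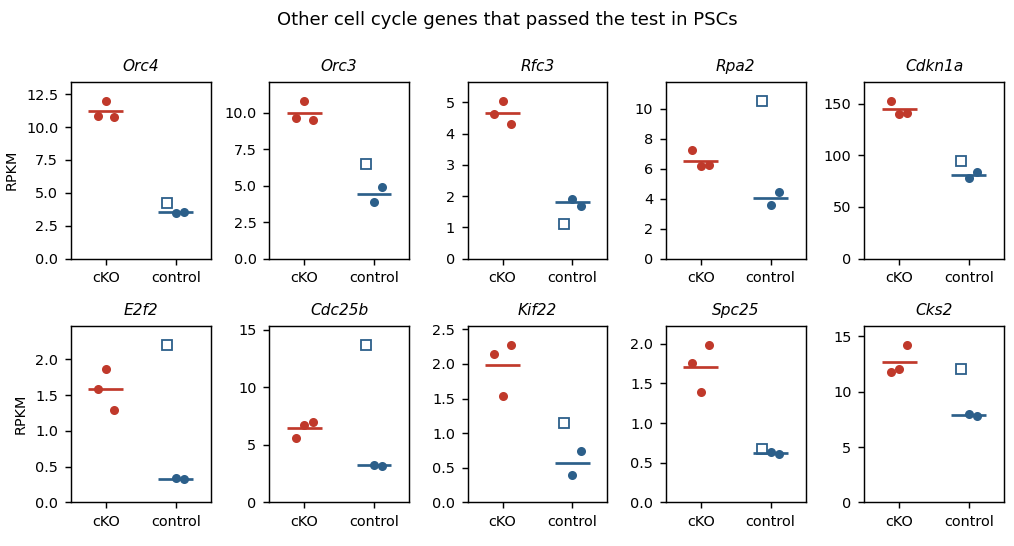
RPKM of 10 other cell cycle genes that passed in PSCs, with 1 point per library (red cKO, blue controls 1 and 2, open square control 3) and a line at the mean of each group without control 3. Orc4, Orc3, Rfc3, Cdkn1a, Kif22 and Spc25 have all cKO libraries above the 3 controls, whereas control 3 lies among or above the cKO libraries for Rpa2, E2f2, Cdc25b and Cks2.

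Cdkn1a (p21), an inhibitor that stops the cycle, also rose. It had 140.6, 141.3 and 152.8 RPKM in cKO libraries, against 78.4 and 84.3 RPKM in controls 1 and 2, with 94.3 RPKM in control 3 (log2 fold change 0.82 ± 0.12, adjusted p = 0.0134), the 1 call among 6 inhibitors tested, and it did not pass over all 6 libraries (adjusted p = 0.0577). Of all genes tested in the 5 libraries, 6.99% were called higher. Of 14 genes tested of the RB, E2F and DREAM list, E2f2 passed, at 1.87, 1.30 and 1.59 RPKM in cKO libraries against 0.34 and 0.32 RPKM in controls 1 and 2, with 2.21 RPKM in control 3 (adjusted p = 0.0129). Control 3 was thus above every cKO library for E2f2. With both controls under 1 RPKM, E2f2 reached the filter on low values only through the cKO libraries, so its call is no support for a change.

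Of 29 mitosis genes outside the 40 that were tested, 5 passed, where 6.99% of all genes tested were called higher. A further 18 on the list fell under the filter, which takes the mean of both groups and so favours genes high in cKO libraries. The log2 fold change was above 0 in all 29 in the 5 libraries, in 26 of 29 with median-of-ratios scaling, in 24 of 28 over all 6 libraries and in 37 of 41 with edgeR on recovered reads. The all-gene medians in these settings were 0.14, -0.01, 0.09 and 0.0053, and the share of all genes above 0 was not counted. Cdc25b, the phosphatase that starts mitosis, had 6.70, 6.97 and 5.63 RPKM in cKO libraries, against 3.23 and 3.18 RPKM in controls 1 and 2, with 13.7 RPKM in control 3 (adjusted p = 0.0170). Kif22, a chromosome motor, had 1.54, 2.28 and 2.14 RPKM in cKO libraries, against 0.39 and 0.74 RPKM in controls 1 and 2, with 1.14 RPKM in control 3 (adjusted p = 0.0228). Spc25, of the kinetochore, had 1.40, 1.99 and 1.75 RPKM in cKO libraries, against 0.63 and 0.61 RPKM in controls 1 and 2, with 0.68 RPKM in control 3 (adjusted p = 0.0263). Kif22 and Spc25 thus had no overlap with any control, but like E2f2 they reached the filter only through the cKO libraries. Cks2, a subunit of CDK complexes, had 12.03, 14.26 and 11.81 RPKM in cKO libraries, against 8.003 and 7.768 RPKM in controls 1 and 2, with 12.05 RPKM in control 3 (adjusted p = 0.0369). The fifth was Wee1, the kinase that holds CDK1 inactive, with a log2 fold change of 0.71.

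The share of intron reads, another readout of the same PSC libraries, did not separate the groups for these genes. Of 37 members tested by limma on the log2 odds of the share, none passed in either direction (0% of 10697 genes tested were called higher and 0.00935% lower). At an unadjusted p under 0.05, 3 were higher and 2 lower, where 13.1% and 3.52% of all genes were. The median difference in log2 odds was -0.05, against 0.15 for all genes. The 5 genes, named after their values were seen, were Ube2c, Mcm7 and Tpx2 (higher) and Pcna and Rrm2 (lower). Ube2c had 5.74%, 4.04% and 2.30% intron reads in cKO libraries, against 0% in controls 1 and 2 and 0% in control 3 (adjusted p = 0.0868). Rrm2, the small subunit of ribonucleotide reductase, had 11.0%, 8.93% and 5.98% in cKO libraries, against 18.9% and 14.9% in controls 1 and 2 and 18.9% in control 3 (adjusted p = 0.240). Neither overlapped between the groups, as was the case for 4 members above and 3 below (10.8% and 8.11% of 37), where 24% and 10.4% of all genes tested did so.

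In osteoclasts the cell cycle genes were abundant and did not separate the groups. All 40 passed the filter on low counts, and none was called in either direction by edgeR, where 4 of 10724 genes were (0.0186% higher and 0.0186% lower), nor was any at an unadjusted p under 0.05 (2.65% of all genes were on the higher side and 2.11% on the lower). DESeq2 called none either. The median log2 fold change was -0.09, against 0.0024 for all genes, with 28 genes below 0 and 12 above. In 3 genes (7.50%, against 5.53% of all genes tested) every cKO library was below every control, and in 0 above (5.08% of all genes). SEs ran from 0.11 to 0.48 with a median of 0.16. The sources used here do not state how many mice gave the osteoclast libraries, so these p-values measure the spread between libraries. The 40 genes summed to 4323, 4124 and 3619 CPM in cKO osteoclasts, against 3884, 4269 and 4924 CPM in control osteoclasts, and the groups overlapped.

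**Figure D5:**
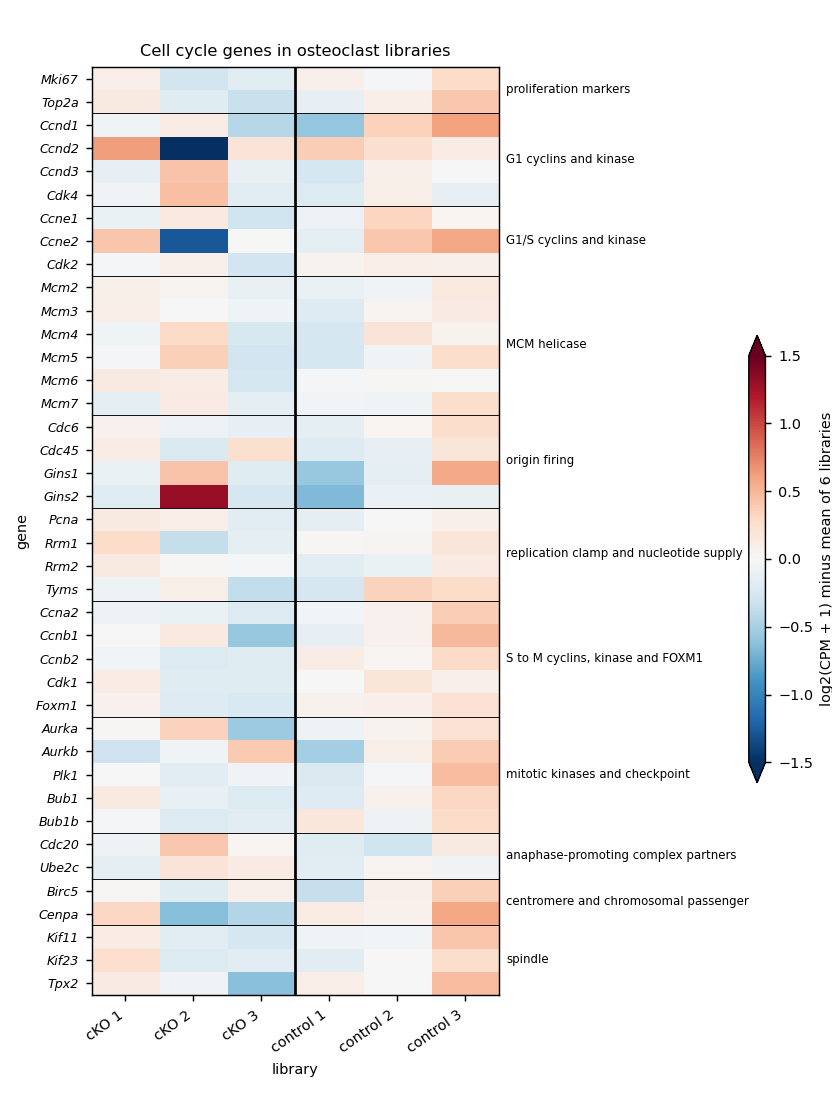
Level of each of the 40 genes in each osteoclast library, as log2(CPM + 1) minus the mean of the 6 libraries, in the same order of genes and with cKO on the left. Control 3, at the right, has the highest CPM in 21 of the 40 genes, and the 2 groups overlap for 37 of the 40.

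Osteoclast control 3 set the direction of the osteoclast medians. It had the highest CPM of the 6 libraries in 21 of the 40 genes and the lowest in 0, while control 1 was lowest in 13 and cKO 3 in 16. Without control 3 the median log2 fold change was 0.0148 (21 genes above 0), and without control 1 it was -0.18 (32 genes below 0). The 11 osteoclast markers summed to 25460 to 32597 CPM in cKO osteoclasts, against 32039, 29796 and 21060 CPM in controls 1, 2 and 3. Erythroid genes were near absent there, with sums of 3.09 to 7.90 CPM in cKO and 4.38 to 6.54 CPM in control. The part of these differences between libraries was not tested.

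The 3 genes without overlap in osteoclasts were the S to M cyclins Ccna2 and Ccnb2 and the factor Foxm1. Ccna2 had 86.6, 86.0 and 79.4 CPM in cKO osteoclasts, against 89.1, 95.8 and 119 CPM in control osteoclasts (log2 fold change -0.27 ± 0.13, adjusted p = 0.950, here and below n = 3 each, edgeR). Ccnb2 (cyclin B2) had 53.6, 47.6 and 48.5 CPM in cKO osteoclasts, against 59.7, 56.6 and 67.7 CPM in control osteoclasts (-0.28 ± 0.14, adjusted p = 0.950). Foxm1, which switches on mitosis genes, had 71.9, 60.1 and 58.8 CPM in cKO osteoclasts, against 72.0, 72.7 and 80.1 CPM in control osteoclasts, so that the nearest pair was nearly level. All 5 genes of this group had a log2 fold change below 0 in osteoclasts (median -0.26) and above 0 in PSCs (median 0.60).

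Mki67 had 591, 457 and 493 CPM in cKO osteoclasts, against 584, 546 and 667 CPM in control osteoclasts. Top2a had 371, 298 and 269 CPM in cKO osteoclasts, against 311, 364 and 447 CPM in control osteoclasts. Both groups overlapped for both markers, with adjusted p = 0.950. Bub1b had 145, 127 and 131 CPM in cKO osteoclasts, against 165, 139 and 177 CPM in control osteoclasts, and had the smallest unadjusted p of the 40 (0.0564). Plk1, the polo-like kinase of mitosis, had 47.9, 42.6 and 46.4 CPM in cKO osteoclasts, against 41.4, 47.7 and 67.0 CPM in control osteoclasts. Both overlapped between groups, with control 3 highest.

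The 3 genes called in PSCs overlapped in osteoclasts. Ube2c had 59.1, 75.1 and 71.1 CPM in cKO osteoclasts, against 58.1, 67.4 and 62.9 CPM in control osteoclasts (0.09 ± 0.14). Aurkb had 40.29, 48.42 and 65.98 CPM in cKO osteoclasts, against 35.02, 53.50 and 65.27 CPM in control osteoclasts (-0.07 ± 0.22). Mcm5 had 172, 223 and 142 CPM in cKO osteoclasts, against 144, 167 and 210 CPM in control osteoclasts (0.04 ± 0.15). Whether the change differs between the cell types was not tested, since the tables hold different units.

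In the remaining groups of osteoclasts the values overlapped as well. Cdc20 had 50.6, 71.0 and 54.6 CPM in cKO osteoclasts, against 47.0, 43.1 and 58.7 CPM in control osteoclasts. Mcm7 had 140, 168 and 140 CPM in cKO osteoclasts, against 150, 148 and 186 CPM in control osteoclasts. Gins2 had the largest log2 fold change of the 40, 0.73 ± 0.44, set by 1 library: 6.53, 20.04 and 6.19 CPM in cKO osteoclasts, against 4.38, 6.93 and 6.91 CPM in control osteoclasts. Cdc6, the loader of MCM on origins, showed no such library, at 35.4, 31.7 and 30.9 CPM in cKO osteoclasts against 30.6, 34.6 and 40.7 CPM in control osteoclasts. Tyms, thymidylate synthase, had 38.1, 42.6 and 30.9 CPM in cKO osteoclasts, against 33.4, 51.2 and 48.7 CPM in control osteoclasts. Rrm2 had 114, 105 and 103 CPM in cKO osteoclasts, against 93.5, 97.0 and 113 CPM in control osteoclasts. The groups overlapped for each of these genes.

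Of the centromere and spindle genes, Cenpa had 50.6, 25.9 and 29.9 CPM in cKO osteoclasts, against 44.2, 42.7 and 61.5 CPM in control osteoclasts. Birc5 had 63.2, 55.1 and 66.0 CPM in cKO osteoclasts, against 48.9, 66.2 and 80.8 CPM in control osteoclasts. Kif11 and Tpx2 were likewise spread within the groups. Kif11 had 114, 94.3 and 88.7 CPM in cKO osteoclasts, against 101, 103 and 141 CPM in control osteoclasts. Tpx2 had 88.8, 78.5 and 52.6 CPM in cKO osteoclasts, against 87.1, 81.6 and 113 CPM in control osteoclasts. Control 3 was the highest library for each of these 4 genes.

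Of the G1 and G1/S genes, Ccnd1 had 169, 190 and 130 CPM in cKO osteoclasts, against 117, 222 and 266 CPM in control osteoclasts. Cdk4 had 163, 231 and 151 CPM in cKO osteoclasts, against 146, 179 and 155 CPM in control osteoclasts. For both, the groups overlapped. Ccne2 had 26.4, 7.51 and 19.6 CPM in cKO osteoclasts, against 17.5, 26.2 and 29.7 CPM in control osteoclasts. Cdk2 also overlapped, at 49.8, 53.4 and 41.2 CPM in cKO osteoclasts against 52.5, 54.3 and 53.5 CPM in control osteoclasts.

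None of the 109 other cell cycle genes tested in osteoclasts passed, and 3 of them, all of mitosis, had an unadjusted p under 0.05 on the lower side. These were Kif4, a chromosome motor, Anln (anillin), which builds the cleavage furrow, and Pkmyt1, the kinase that holds CDK1 inactive. Kif4 had 37.8, 35.1 and 24.7 CPM in cKO osteoclasts, against 49.7, 38.9 and 48.3 CPM in control osteoclasts. Anln had 121, 98.5 and 94.8 CPM in cKO osteoclasts, against 125, 121 and 153 CPM in control osteoclasts. Kif4 did not overlap between the groups and Anln did. Orc4, the gene with the largest change in PSCs, had 44.1, 30.9 and 18.6 CPM in cKO osteoclasts, against 33.8, 38.5 and 42.1 CPM in control osteoclasts, and Cdkn1a had 45.5, 37.6 and 42.3 CPM in cKO osteoclasts, against 42.2, 47.7 and 55.6 CPM in control osteoclasts.

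Set side by side per kb of exon, with no test since the tables were made differently, 38 of the 40 genes had a higher control mean in osteoclasts (CPM per kb) than in PSCs (RPKM), all but Ccnd2 and Ccnd3. Mki67 averaged 60.2 ± 7.4 CPM per kb in control osteoclasts (SD, n = 3) and 0.94 ± 0.17 RPKM in PSC controls 1 and 2 (SD, n = 2). Ccnd2 ran the other way, with 0.786 CPM per kb in control osteoclasts and 25.6 RPKM in PSC controls, where it was the second most abundant of the 40 after Cdk4 (32.6 RPKM). In PSCs 26 of the 40 genes had a mean of 1 to 5 RPKM over the 5 libraries, and 4 had at least 10, whereas 33 of the 40 had at least 10 CPM per kb in osteoclasts, led by Pcna with 94.6 CPM per kb in cKO and 93.0 in control.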

How the data were processed

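RNA-seq of sorted PSCs and of osteoclasts was sequenced on Ion Torrent Proton from SMART-seq v4 libraries. The study's methods name FastQC, Trim Galore 0.6.4, kallisto 0.46.0, GRCm38 and DESeq2; of the aligner, the counter and the use of strand, the sources used here say nothing. For osteoclasts the authors deposited whole read counts per gene; columns of their own comparison (fold change and p-values) were not used. For PSCs the authors deposited RPKM per gene together with its intron share (intron reads over all its reads, a ratio), in 1 table of 5 libraries and 1 table of control 3, and no sample column was left unmapped. With the exon lengths listed for control 3, RPKM steps gave whole reads (within 0.02 of a whole number) for 85.8% to 85.9% of genes in the 5 libraries of one table. In control 3 itself they did so for 100%, so some genes may have another exon length in the 5 libraries.

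Counts were tested with edgeR 4.0.16 (quasi-likelihood, TMM, filterByExpr; R 4.3.3). RPKM were tested with limma 3.58.1 on log2(RPKM + 1), mean RPKM of at least 1, 3 cKO against controls 1 and 2, so fold changes are on that scale and understate changes of low genes. For intron shares, limma was run on the log2 odds (offset 0.005). P-values were adjusted by Benjamini-Hochberg over all genes tested, with 0.05 as the threshold, and scripts were tested on simulated data. Alternatives were DESeq2 1.42.0, other factors, filters, pseudocounts and scaling, edgeR on recovered reads, a replicate block and leaving out each library; 3 PSC alternatives with control 3 (edgeR on reads of 6 libraries, and control 3 in place of control 1 or 2) were chosen after seeing the data.

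The 40 genes and the other lists were chosen with earlier results of these data known. Values per library are given for genes that passed in any comparison, for the 2 per role with the smallest p in each cell type, and for up to 4 genes of each other list; genes named beyond this rule (such as Aurkb, Foxm1, Orc4 and Cdkn1a in osteoclasts, or Bub1 and the intron shares in PSCs) were chosen after their values were seen. Exons of 15 of the 40 genes share bases with another gene in GENCODE vM21, at least 10% of them in Ccnd1, Cdk4, Ccne2, Mcm7, Gins2, Ccna2 and Ube2c, whose values are therefore less certain.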

Additional observations from a re-analysis of the deposited data

Results flagged for a closer look

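In 3 genes every library labelled cKO was above controls 1 and 2 in PSCs and every cKO library was below every control in osteoclasts. Ccna2 and Ccnb2 are of the main list, whereas Prim1 is of the other replication genes. Of all genes tested, 35.6% met the PSC condition and 5.53% met the osteoclast condition. The share of all genes that met both was not counted, so the 3 genes are a description only. Ccna2 (cyclin A2) had a log2 fold change of 0.84 in PSCs and -0.27 in osteoclasts, Ccnb2 (cyclin B2) one of 0.60 in PSCs and -0.28 in osteoclasts, and Prim1, the catalytic subunit of primase, one of 0.25 in PSCs and -0.43 in osteoclasts. None of these 6 values passed its own test, and the difference between the cell types was not tested, since the tables hold different units. PSC control 3 lay among the cKO libraries for Ccna2. It lay below them for Ccnb2, where it may be on another length scale. Groups of 3 or fewer libraries allow no test for a single stray sample.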

How the results depend on the processing

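The PSC calls depended on the settings, whereas none of the 40 was called in osteoclasts under any alternative. Osteoclast counts at an unadjusted p under 0.05 (edgeR) did vary, from 0 in the main fit. With no filter 7 were lower, where 3.88% of all genes passed in either direction. Without cKO 1, 8 were lower and 1 higher (9.95% of all genes in either direction). Without control 1, 5 were lower (5.85%), and in each other setting at most 2 were. Of the 40, 3 were called higher in PSCs, against 0 over all 6 libraries (limma or edgeR on reads), with edgeR on recovered reads, with median-of-ratios scaling, without the filter on low values, and with control 3 in place of control 1 or 2. It was 4 with a trended prior, 2 with a pseudocount of 0.1 and 2 at a mean RPKM of at least 5. Leaving out 1 PSC library gave 0 to 2. The count of all PSC genes called was 925, against 166 over all 6 libraries, 195 there with edgeR on reads, 388 without the filter, 2 and 0 with control 3 in place of control 1 or 2, and 93 (without control 1) to 458 (without cKO 2) when 1 library was left out. In osteoclasts it was 4, against 0 with at least 10 reads in every library, 46 with no filter, and 0 to 9 (without cKO 1) when 1 library was left out. For the intron share it was 1, against 0 over all 6 libraries, 121 at a mean RPKM of at least 5, and 0 to 2 when 1 library was left out. The causes were not tested.

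Replicate numbers did not pair the libraries: deviations of same-numbered libraries correlated at -0.07, 0.07 and -0.07 in osteoclasts and at -0.04 and -0.08 in PSCs. With the number as a replicate block, 0 osteoclast genes, 4 PSC genes, 0 of the 40 in PSCs and 0 intron shares were called. In osteoclasts only cKO 2 correlated best with its own number.

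Directions turned for few genes. In PSCs over all 6 libraries with edgeR on reads, the log2 fold change was -0.12 for Cdc25b and -0.13 for Pcna. With control 3 in place of control 1 it was -0.083 for Cdc25b, -0.0818 for Pcna and -0.072 for Rpa2, and in place of control 2 it was -0.091 for Cdc25b and -0.13 for Pcna. Prmt5 in PSCs had -0.10 with scaling, -0.11 with edgeR on recovered reads and -0.12 to 0.23 when 1 library was left out. In osteoclasts, leaving out 1 library gave -0.26 to 0.095 for Birc5, -0.18 to 0.028 for Cdc6, -0.019 to 0.27 for Cdk4, -0.28 to 0.081 for E2f2, -0.12 to 0.20 for Mcm5 and -0.32 to 0.046 for Plk1. Prmt5 in osteoclasts kept its direction, with an adjusted p of 0.037 to 0.281 when 1 library was left out.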
